A study of Arabidopsis thaliana with 6 samples.

Results

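Cytochromes P450 were examined in sorted Arabidopsis root protoplasts that carried HRS1, a transcription factor, fused to the glucocorticoid receptor. Members were the ATH1 probe sets whose annotation names 1 gene with a symbol made of CYP, digits and a letter. This rule gave 23 genes among 22746 tested probe sets, each gene with 1 probe set. The gene table of TAIR10.1 lists 236 genes with such symbols in 40 families by number. The 23 genes belong to 5 of these families: 19 to family 71, all in subfamily CYP71B, and 1 each to families 51, 78, 79 and 84. The other P450 genes were not analysed here.

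All 6 samples shared the plasmid with the fusion under the 35S promoter, nitrate, and 35 µM cycloheximide, an inhibitor of translation. In 3 samples (+DEX) 10 µM dexamethasone (DEX) was added, which lets the fusion protein enter the nucleus, and 3 samples (−DEX) received none. Transfected cells were collected by red fluorescence and each sample was measured on 1 array. The 35S promoter drives the fusion in all cell types, so its level is not that of the native gene, and strain and plant age are not given in the sources used here. No DEX-treated samples without the fusion were analysed, so an effect of DEX itself cannot be told apart from that of nuclear HRS1. The question put to the arrays was which transcripts respond to nuclear HRS1 while translation is blocked.

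P450s are haem enzymes, most of them anchored in the endoplasmic reticulum, that insert 1 oxygen atom into a substrate with electrons from NADPH. The digits of a symbol name the family, the letter the subfamily, and the last number the gene. Plants use them in hormone metabolism, in lignin, suberin and sterol synthesis and in defence compounds. CYP71B is a large subfamily whose genes lie largely in tandem rows, and its best known member, CYP71B15 (PAD3), completes the synthesis of the phytoalexin camalexin.

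Few of the 23 P450s were detected throughout. Values are log2 intensities scaled so that the median probe set of every array lies at 6.32. Background was set per array at the 95th percentile over 27 controls for Bacillus RNA. It was 5.54, 5.07 and 5.72 with DEX (replicates 1 to 3, as in all such lists) and 6.23, 6.59 and 5.35 without. Above it on all 6 arrays were 3 of the 23 genes (13.0%), CYP71B6, CYP71B21 and CYP84A4, against 33.4% of all tested probe sets. Another 13 were above it on 1 to 5 arrays, 9 of these on only 1 or 2. The remaining 7 (30.4%) were below it on every array, against 19.4% of all tested probe sets. The median of the members' mean levels was 4.36, against 5.98 over all tested probe sets. Among probe sets naming 1 gene, as the members do, 29.6% were above background on all 6 arrays and 22.3% below it on every array. Their median level was 5.59. Brightness depends on each probe set's sequences as well as on its transcript, so the order of brightness is not an order of transcript amounts. In bulk RNA, fewer cells of a type and less RNA per cell cannot be told apart.

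**Figure D1:**
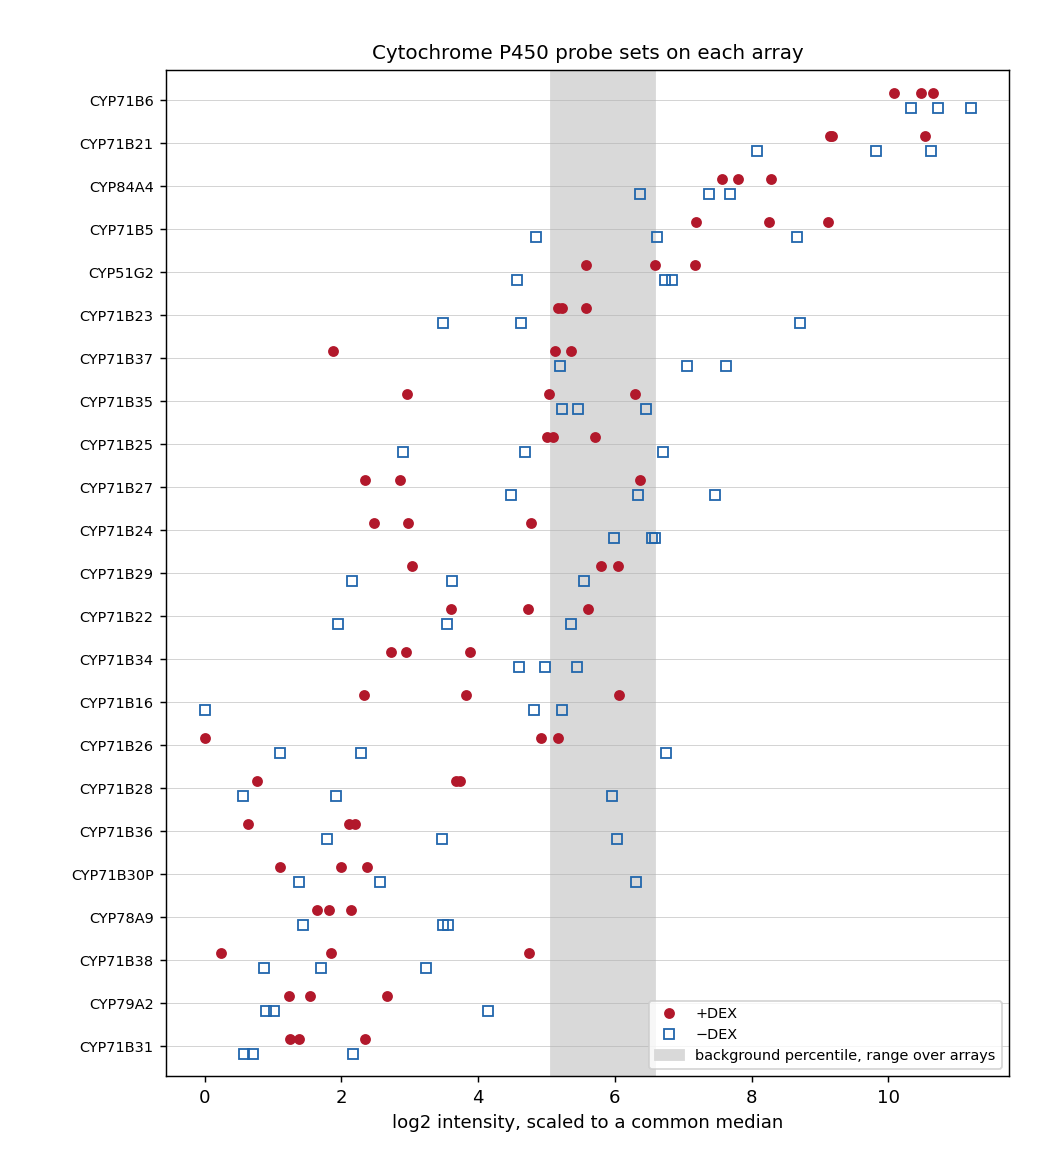
Log2 intensity (x axis) of the 23 P450 genes, brightest at the top, with 1 point per array: filled circles for +DEX and open squares for −DEX. The grey band spans the background percentile over the 6 arrays, 5.07 to 6.59. CYP71B6 and CYP71B21 lie wholly to its right, and most genes in the lower part lie in it or to its left.

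CYP71B6 (AT2G24180) was the brightest member. Its enzyme converts indole acetonitrile to indole carbaldehyde and indole carboxylic acid, products related to camalexin. It measured 10.48, 10.08 and 10.65 with DEX and 10.33, 11.20 and 10.73 without. The groups overlapped, and the lowest and highest of the 6 values were +DEX replicate 2 and −DEX replicate 2. The difference, +DEX minus −DEX, was −0.35 ± 0.47 (log2, SE; limma adjusted p = 0.905), with a 95% interval from −1.35 to 0.65, and it ran from −0.56 to −0.13 with single arrays left out.

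CYP71B21 (AT3G26190) was next in brightness. Its values were 9.15, 9.18 and 10.53 with DEX and 8.08, 9.82 and 10.62 without. In both groups replicate 3 was the highest, and the lowest of the 6 was −DEX replicate 1. The difference was 0.12 ± 0.69 (log2, SE; limma adjusted p = 0.983; 95% interval −1.37 to 1.60), and its sign turned with array weights (−0.09) and without −DEX replicate 1 (−0.60) or +DEX replicate 3 (−0.34).

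CYP84A4 (AT5G04330), whose enzyme supplies the precursor of the arabidopyrone lactones from phenylpropanoids, was the third gene above background throughout. Values were 7.57, 7.80 and 8.28 with DEX and 6.37, 7.38 and 7.68 without. The lowest value was again −DEX replicate 1, and the groups overlapped only because −DEX replicate 3 exceeded +DEX replicate 1. The difference was 0.75 ± 0.78 (log2, SE; limma adjusted p = 0.870), and the 95% interval ran from −0.92 to 2.41. Without −DEX replicate 1 the difference was 0.36, and with any other array left out it was 0.55 to 1.01.

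CYP71B5 (AT3G53280) was above background on all 3 +DEX arrays and on 2 of 3 −DEX arrays, and it was the only member above background on all arrays of 1 group and not of the other. It measured 9.12, 7.18 and 8.26 with DEX and 4.85, 8.66 and 6.62 without. The −DEX values were widely spread and enclosed 2 of the 3 +DEX values. The difference of 1.48 ± 1.0 (log2, SE; limma adjusted p = 0.797) was the highest among the 23, and it was 0.55 without −DEX replicate 1 and 2.45 without −DEX replicate 2.

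None of the 23 genes passed the test. At a limma adjusted p under 0.05, 0 members were lower with DEX, where 0.119% of all tested probe sets were, and 0 were higher, where 0.0% were. The smallest adjusted p among the members was 0.751. At an unadjusted p under 0.05 there was 1 member, CYP71B24, which was lower, against 4.11% of tested probe sets lower and 2.49% higher. Of the 23 differences, 13 were negative and 10 positive. Their median was −0.08, close to the −0.10 over all tested probe sets, and it moved to 0.07 after quantile normalization and 0.11 as deposited. Precision is limited by the number of arrays, 3 per group: the median standard error of a member's difference was 1.27 on the log2 scale, against 1.13 over all tested probe sets. Since the labels name no separate cultures behind the replicates, the p-values describe only how these samples vary, and that variation may be technical.

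**Figure D2:**
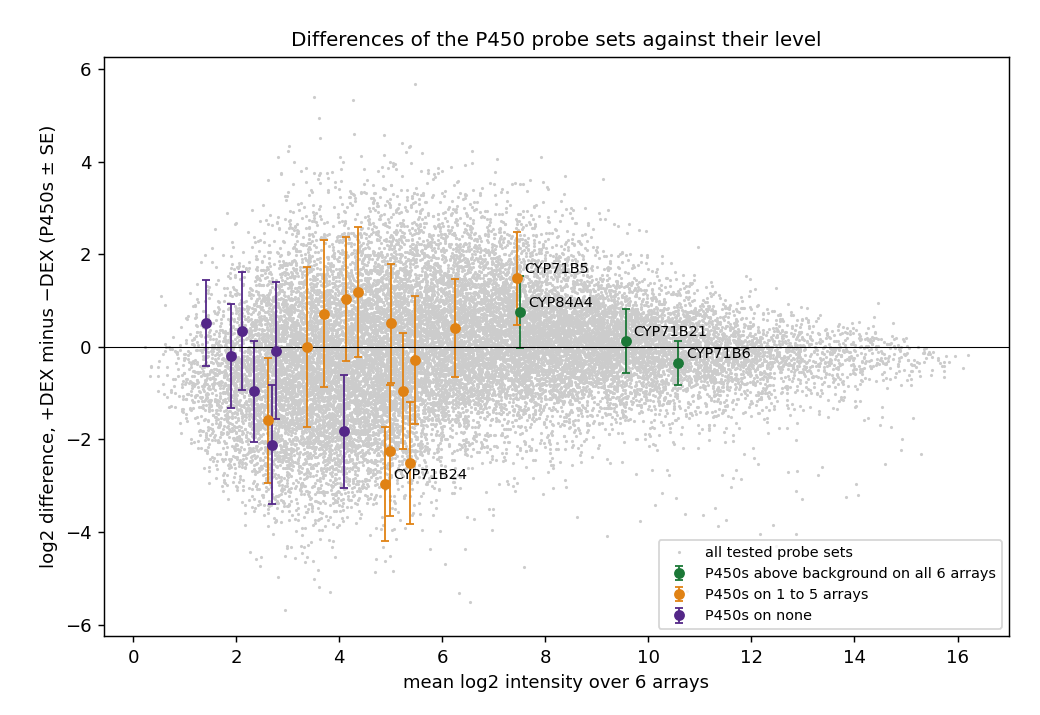
Log2 difference, +DEX minus −DEX (y axis), against mean log2 intensity over the 6 arrays (x axis), for the 23 P450s with SE bars and for all tested probe sets as grey points. The 3 genes above background on all 6 arrays lie between −0.35 and 0.75, and the other 20 between −2.97 and 1.48.

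CYP71B24 (AT3G26230) had the smallest p of the members. It measured 4.77, 2.47 and 2.97 with DEX and 6.54, 5.98 and 6.59 without. Every +DEX value lay below every −DEX value. All 3 +DEX values were below background, and on the −DEX side replicates 1 and 3 were above it. The difference was −2.97 ± 1.23 (log2, SE; limma adjusted p = 0.751), at −1.37 with values floored at a log2 of 5, and this is the 1 member counted above by its unadjusted p. The limma confidence interval of this difference ran from −5.59 to −0.34. The −DEX mean of 6.37 was 1.90-fold above the mean +DEX background percentile of 5.44, but the mean −DEX percentile was 6.06. This ratio sets a −DEX mean against a +DEX background, so it is not a lower bound on the change. The other member without overlap between groups was CYP71B34 (AT3G26300), at 3.88, 2.94 and 2.73 with DEX and 4.59, 5.44 and 4.98 without, named here after its values were seen. It was below background on all 6 arrays. Its difference was −1.82 ± 1.22 (log2, SE; limma adjusted p = 0.796), and the floor at 5 left −0.15. That floor raises every value under it, and only −DEX replicate 2, at 5.44, lay over it. Whether the difference of CYP71B34 is one of transcript or of background was not tested. Members lower without overlap were thus 2 of 23, where 7.55% of all tested probe sets were, and members higher without overlap were 0, where 4.99% were.

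The background itself differed between the groups on average, but not on every array. On −DEX replicate 3 the background percentile, 5.35, lay within the +DEX range of 5.07 to 5.72. The median of the Bacillus controls on that array, 3.05, also lay within the +DEX range, 1.82 to 3.11. The 27 Bacillus control probe sets had a median difference of −0.74, with 20 of the 27 negative, and the 4414 tested probe sets below background on every array had a median difference of −0.64. The 7 P450s below background on every array had a median of −0.20, 5 of them negative. Both dim sets were chosen by a bound that averaged 5.44 with DEX and 6.06 without, which by itself lets −DEX values lie higher. Tested probe sets above background on 1 to 5 arrays had a median difference of 0.14. The medians of the dim sets are thus no separate measure of a background shift. The part of the background shift in the differences of dim P450s was not tested.

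Most CYP71B members fell into 3 tandem groups in the gene table, taken as genes of the subfamily with at most 10 other entries between neighbours. The largest runs from CYP71B16 to CYP71B37 and lists 18 CYP71B genes, of which 11 are members. CYP71B21 alone of the 11 was above background on all 6 arrays, with group means of 9.62 ± 0.79 with DEX and 9.50 ± 1.3 without (log2, SD, n = 3 each). The nearest members to it in gene order, CYP71B22 and CYP71B23, had means of 4.65 ± 1.01 and 5.33 ± 0.22 with DEX, against 3.62 ± 1.70 and 5.61 ± 2.75 without (log2, SD, n = 3 each). CYP71B22 was above background on 1 of the 6 arrays. CYP71B23 was so on 2, and its wide −DEX spread came from replicate 2, at 8.71, against 4.62 and 3.49 in replicates 1 and 3. On the other side of CYP71B21 lie CYP71B19 and CYP71B20, which share 1 probe set and are no members, and that probe set was above background on 1 of 6 arrays.

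**Figure D3:**
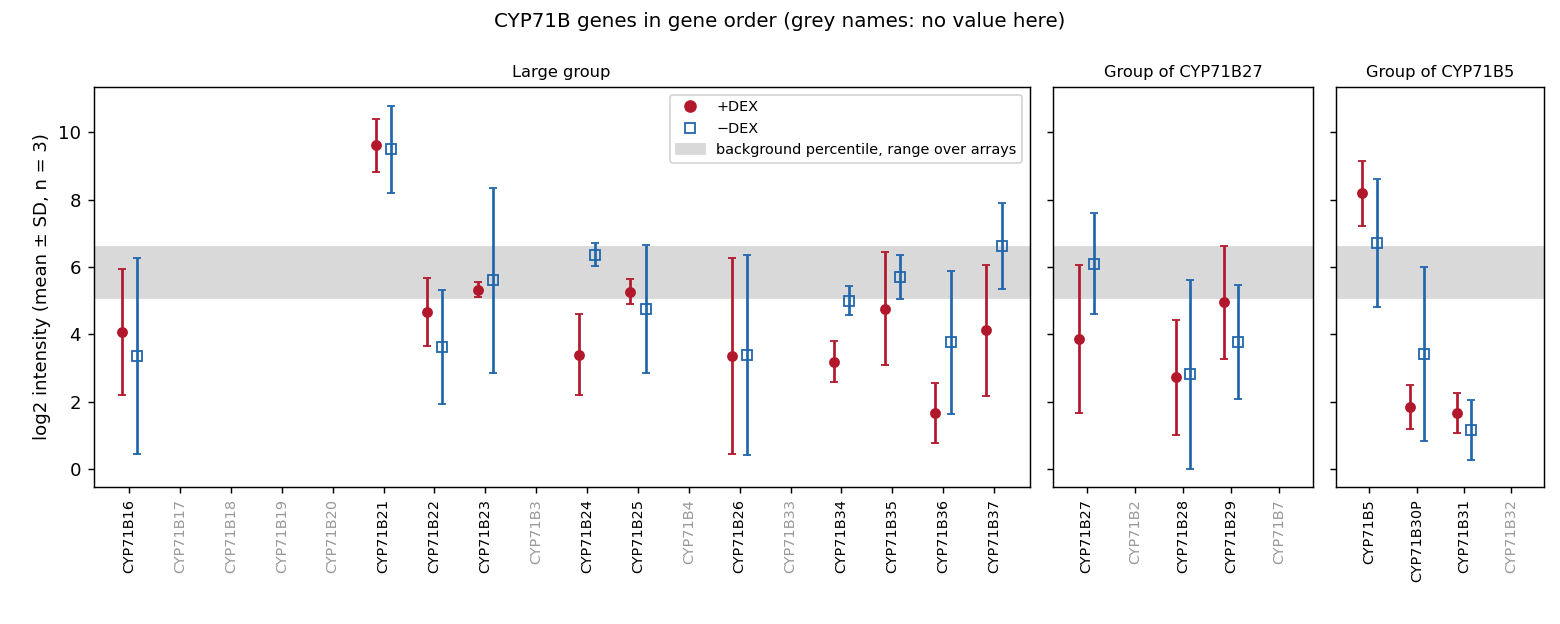
Mean log2 intensity ± SD (y axis, n = 3 arrays) of CYP71B genes in their order along the 3 tandem groups (x axis), with filled circles for +DEX and open squares for −DEX. The grey band is the range of the background percentile, 5.07 to 6.59, and grey names have no value here. The means of CYP71B21 in the large group and of CYP71B5 in the smallest lie above the band in both conditions, and those of CYP71B22, CYP71B23, CYP71B30P and CYP71B31, which lie next to them among the members, lie in it or below.

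In the smallest group, CYP71B5 is followed by CYP71B30P and CYP71B31, with 1 more listed gene after them. CYP71B30P, a pseudogene by its full name but typed as protein-coding in the gene table, averaged 1.83 ± 0.65 with DEX and 3.42 ± 2.58 without (log2, SD, n = 3 each), and its only value above background was 6.31 on −DEX replicate 1. CYP71B31 was the dimmest of the 23, at 1.66 ± 0.60 with DEX and 1.15 ± 0.89 without (log2, SD, n = 3 each). In the group of 5 listed genes that begins with CYP71B27, 3 are members and 0 were above background on every array. CYP71B27, a transcribed pseudogene in the gene table, measured 6.37, 2.35 and 2.86 with DEX and 7.46, 6.34 and 4.48 without, and was above background on replicate 1 of each group only. Its difference was −2.24 ± 1.41 (log2, SE; limma adjusted p = 0.790), from −3.49 without +DEX replicate 1 to −1.48 without +DEX replicate 2, and −0.81 with the floor at a log2 of 5. CYP71B29 differed by 1.18 ± 1.40 (log2, SE; limma adjusted p = 0.885), from 0.38 without −DEX replicate 2 to 2.15 without +DEX replicate 3, and 0.43 with that floor, and CYP71B28 lay below background on all 6 arrays.

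The last 4 members of the large group, CYP71B34, CYP71B35, CYP71B36 and CYP71B37, lie at its end in unbroken order and all had negative differences. This run was picked out after the values were seen and is given as a description. Averaged over the 4 genes, log2 intensities were 3.56, 3.49 and 3.23 with DEX and 5.54, 5.99 and 4.29 without. Since the genes were picked for their sign, these averages support nothing further, and 2 of the 4 genes were below background throughout, where the background itself differed as given above. CYP71B37 (AT3G26330) measured 1.87, 5.35 and 5.12 with DEX and 7.63, 7.05 and 5.19 without, so the groups overlapped. Its difference was −2.51 ± 1.31 (log2, SE; limma adjusted p = 0.766), it was −1.38 without +DEX replicate 1, and the gene was above background on 1 of 3 +DEX and 2 of 3 −DEX arrays. CYP71B35 differed by −0.95 ± 1.25 and CYP71B36 by −2.11 ± 1.29 (log2, SE; limma adjusted p = 0.903 and 0.789), the second below background on all 6 arrays. Without +DEX replicate 3 CYP71B35 was at −0.05, and without −DEX replicate 2 CYP71B36 was at −0.98. With values floored at a log2 of 5, CYP71B34 to CYP71B37 were at −0.15, −0.27, −0.34 and −1.46, in gene order. Elsewhere in the large group the signs were mixed: CYP71B25 was at 0.51 ± 1.29 and CYP71B23 at −0.28 ± 1.38 (log2, SE), while CYP71B16 and CYP71B26 ranged from 0.00 on 1 array each to 6.06 and 6.74.

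CYP71B38, which stands apart from these groups, lay below background on all 6 arrays, at 0.24 to 4.75 with DEX and 0.87 to 3.24 without. The families with 1 member each can be compared only as single genes. CYP51G2 (AT2G17330) belongs to the family of sterol demethylases and is a transcribed pseudogene in the gene table. It measured 7.17, 6.58 and 5.58 with DEX and 6.84, 4.57 and 6.73 without, above background on 2 of 3 in each group. The difference was 0.40 ± 1.06 (log2, SE; limma adjusted p = 0.957), and it became −0.34 without −DEX replicate 2. CYP78A9, known for promoting fruit and seed growth, and CYP79A2, which starts benzylglucosinolate synthesis from phenylalanine, lay below background on every array. Their means were 1.87 ± 0.25 and 1.81 ± 0.75 with DEX, and 2.83 ± 1.21 and 2.02 ± 1.84 without (log2, SD, n = 3 each). Family 71 had 2 of 19 genes above background on all arrays and a median difference of −0.08, and the other families together had 1 of 4 and a median of 0.10. CYP718, whose symbol has no subfamily letter and so is no member, lay below background on all 6 arrays.

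One array, −DEX replicate 1, was least like the others: its Spearman correlations with them averaged 0.708, against 0.777 to 0.822 for the rest. It held the highest value of 9 of the 23 P450s, against 26.9% of all tested probe sets and 33.9% of those below background throughout. CYP71B25, CYP71B26 and CYP71B30P were above background on that array alone. Members above background numbered 9, 9 and 4 with DEX and 11, 6 and 7 without. Of all tested probe sets 59.1, 64.6 and 57.2% were above it with DEX, and 51.4, 46.5 and 61.8% without. Without −DEX replicate 1, 4 genes were above background on all remaining arrays, CYP71B5 being added, and the median difference was −0.14. The part of this array in the single values was not tested.

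Other genes of P450 pathways were followed from lists by role. Of 90 listed P450s 5 were measured, and of 130 listed partner genes 9 were, with 0 of either lower and 0 higher past the limma threshold. Measured here means having a probe set whose annotation names that gene alone, so the array may hold values for other listed genes. AT3G02280 (TAH18), a diflavin reductase, was the only measured gene of the list of redox partners, with a difference of −1.21 ± 1.19 (log2, SE; limma adjusted p = 0.859). Whether its protein passes electrons to P450s was not tested, so the listing does not make it a measure of their electron supply. The glucosinolate list holds CYP79A2 but is not limited to its phenylalanine route. In that list BCAT4, which starts the chain elongation of methionine, averaged 5.03 ± 1.53 with DEX and 2.27 ± 1.33 without (log2, SD, n = 3 each; limma adjusted p = 0.755). BCAT4 was above background on 1 of 6 arrays. The other 3 measured partner genes of that list were UGT74B1 and GSTU20, at −0.46 ± 0.75 and −0.25 ± 1.07, and AT2G31790, at 1.39 ± 1.04 (log2, SE). UGT74B1 was the only one of the 4 above background on all 6 arrays. Beside CYP84A4 in phenylpropanoid metabolism, HCT, an acyltransferase of lignin synthesis, differed by −1.02 ± 1.04 and F6'H1, an enzyme of scopoletin synthesis, by 0.18 ± 0.71 (log2, SE). AT5G47980, listed for triterpenes, was above background on all 6 arrays, at 10.32 ± 0.18 with DEX and 10.01 ± 0.38 without (log2, SD, n = 3 each). FACT, which makes caffeate esters of root waxes, averaged 4.15 ± 1.28 with DEX and 2.77 ± 2.15 without (log2, SD, n = 3 each). It was above background on 1 of 6 arrays, and its difference of 1.38 fell to 0.21 with the same floor. Of 17 root and leaf cell type markers only EXPA7 of root hairs and AT1G62500, listed for the cortex, were measured in this sense. Both were below background on every array. The other markers were not followed, so the labelled tissue was not checked against its markers.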

How the data were processed

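The authors' deposited values are linear intensity, 1 per array for each probe set, and how probes were summarised is not stated in the labels. RNA was extracted with TRIzol and labelled with a kit that primes at the 3′ end, per the labels' protocols. Deposited intensities had a 2% trimmed mean of 500.0 on each array, and medians of 66.3 to 92.9. The 64 Affymetrix controls among the 22810 probe sets were not tested. Arrays were scaled to the same median, floored at an intensity of 1 and put on a log2 scale, then fitted with limma 3.58.1 in R 4.3.3 (group only, eBayes with a variance trend, two-sided, Benjamini-Hochberg over all 22746 probe sets, threshold 0.05). The fit was tested on simulated data. Changes were put only into bright probe sets there, and most members are dimmer than those, so calling a change in dim members was not tested. Members and lists were chosen with earlier results of these data known. Named genes are the members above background on all arrays of a group with the smallest p or in a role list, the 12 brightest members, the brightest of a family with 3 or more members, and up to 2 partner genes per list by p, to which the other measured partners were added after their values were seen. Others are named by place in a tandem group. Symbols come from the array annotation, and RefSeq's TAIR10.1 gene table gave loci, gene types and gene order. No sequence was used. Alternatives covered scaling, a dim filter, the variance model, array weights, a floor, the replicate block, the background bound, the member rule and each array left out.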

Additional observations from a re-analysis of the deposited data

How the results depend on the processing

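In every setting run, limma called 0 of the 23 P450s lower and 0 higher, the smallest adjusted p over these settings being 0.416, without −DEX replicate 3. Unadjusted p under 0.05 held for 0 to 2 members. The median difference was −0.08 as reported, 0.07 after quantile normalization, 0.11 as deposited and −0.15 with a floor at a log2 of 5, and it ranged from −0.55 to −0.07 with single arrays left out. Members above background on all arrays numbered 3, also with the median of all probe sets as the bound, and 3 to 4 with single arrays left out. Without the dimmest 40% of probe sets 8 members were left. The mean over probe sets and the wider member rule gave the same 23 genes and values.

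With the replicate block the median was −0.08 and 0 members were called. Deviations of arrays with the same number correlated by 0.025, −0.0051 and 0.014, and of those with different numbers by −0.036 to 0.025, so the numbers pair nothing that these values show. For the 23 genes whose differences were followed, members and partners together, 291 alternative values were run. Of these 13 turned sign and 0 passed the adjusted threshold, and 15 of the genes never turned. CYP71B21 was at −0.09 with array weights, and from −0.60 to 0.68 with single arrays left out. Leaving out single arrays also gave CYP51G2 −0.34 to 0.83, CYP71B23 −1.34 to 1.27, CYP71B25 −0.42 to 1.48, HCT −1.65 to 0.21, UGT74B1 −1.15 to 0.28, GSTU20 −0.81 to 0.49 and F6'H1 −0.27 to 0.51. CYP71B25 was at −0.30 with the floor, and GSTU20 at 0.00 with array weights. The cause was not tested. Only 3 of the 23 members were above background on all 6 arrays.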
